A study of Mus musculus with 4 samples.

Results

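The cytochrome P450 enzymes of families 1 to 3 were followed in liver of mice carrying a synonymous Foxo1 mutation and in wild type liver. Members were all protein-coding genes whose symbol is Cyp followed by 1, 2 or 3, one letter and a number, with or without a closing letter. Of 37315 genes in the count files, 60 met this rule, 3 in family 1, 48 in family 2 and 9 in family 3, and they fell into 16 subfamilies. Cyp2ab1, whose symbol has a pair of letters, and 8 pseudogenes lie outside the rule and were not counted. RNA was sequenced from liver tissue of C57BL/6 mice aged 23 weeks, 2 wild type libraries and 2 Foxo1 mutant libraries, and strain, age and tissue were the same in both groups. The position of the mutation, the sex of the mice, the feeding state, the housing and any drug exposure were not given in the sources used here, nor is it said that the libraries came from separate animals, so the p-values reflect variation between libraries that may be technical only.

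Cytochrome P450 enzymes are haem proteins of the endoplasmic reticulum that insert an oxygen atom into drugs, toxins, steroids and fatty acids, with electrons delivered by P450 oxidoreductase. In hepatocytes their genes are switched on by the xenobiotic receptors AhR (family 1), CAR (Cyp2b and Cyp2c) and PXR (Cyp3a), are often strongest around the central vein, and in mice differ between the sexes under the control of growth hormone pulses. Foxo1 is a forkhead transcription factor restrained by insulin, and forkhead factors have been linked to CAR and PXR activity.

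Levels are given in CPM, the count per 1e+06 reads after scaling by library size and TMM factors. The libraries held 73551737 to 95908652 counts, and 3 counts, the most that a count of 0 allows, correspond to 0.0315 to 0.0415 CPM, covering counting error only. Foxo1 was at 44.0 and 54.8 CPM in the wild type libraries and at 33.6 and 53.4 CPM in the mutant libraries. Of 14657 genes tested, 50 (0.341%) passed an edgeR quasi-likelihood adjusted p below 0.05, 41 higher (0.28%) and 9 lower (0.0614%) in the mutant. In whole tissue, fewer cells of a type and less RNA per cell cannot be told apart. Kupffer cell markers were higher in the mutant for 15 of 15 genes (49.7% over all genes), with 7 past the threshold. Of the 15, 14 had an edgeR unadjusted p below 0.05 (6.19% over all genes). Groups did not overlap for 15 of 15 (34.1% over all genes). Their summed level was 361 and 385 CPM in the wild type libraries and 550 and 631 CPM in the mutant libraries, and none was at 0. All 7 calls were lost with any 1 library left out. Markers of hepatocytes (13 genes), sinusoidal endothelial cells (12), stellate cells (12) and cholangiocytes (6) had median log2 fold changes of 0.07, −0.02, −0.07 and −0.04. Of these, 0 passed the edgeR threshold, and 0, 0, 2 and 0 had an unadjusted p below 0.05 (6.19% over all genes). Erythroid markers were higher in 5 of 5 tested, with 3 at an unadjusted p below 0.05 and 1 past the threshold, Hbb-bt, a call that was lost with any 1 library left out. Their summed level was 238.5 and 266 CPM in wild type against 295.5 and 334.5 CPM. Among markers of lymphocytes (9 tested), neutrophils (2), exocrine pancreas (2), kidney (1), intestine (2) and lung (1) 0 passed in edgeR. In that order 0, 2, 1, 0, 0 and 1 had an unadjusted p below 0.05. The neutrophil markers S100a8 and S100a9 (log2 fold changes 1.55 and 1.28) and the lung marker Sftpa1 (0.74) were higher in the mutant. The pancreas marker Cela1 (−0.23) was lower. Cpa1, Prss2, Umod, Slc22a6 and Scgb1a1 were at 0 in every library. The part of these differences in the P450 values was not tested.

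Promoter sequences are shown for members on which the account below turns, chosen after their values were seen. All come from RefSeq (GRCm38.p6) and were trimmed to the bases ahead of every annotated transcript of the gene. The first pair carries letters that forkhead factors are known to bind. Capitals mark GTAAACA, the forkhead letters, or CAAAACA, the insulin response letters, on either strand. Cyp3a11 lies at chr5:145879965-145880104 (minus strand) and Cyp2j5 at chr4:96664155-96664369 (minus strand).
Cyp3a11: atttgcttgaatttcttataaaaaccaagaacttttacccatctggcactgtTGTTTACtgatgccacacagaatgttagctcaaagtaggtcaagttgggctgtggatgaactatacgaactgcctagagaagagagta
Cyp2j5: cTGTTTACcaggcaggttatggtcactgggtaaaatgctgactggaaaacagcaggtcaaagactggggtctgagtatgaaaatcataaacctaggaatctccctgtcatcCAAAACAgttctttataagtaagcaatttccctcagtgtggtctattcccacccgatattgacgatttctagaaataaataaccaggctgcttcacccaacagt

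The second pair, Cyp2c40 (chr19:39812815-39813034, minus strand) and Cyp2c69 (chr19:39886800-39887019, minus strand), shows how alike neighbouring copies in the family can be. Capitals mark the bases at which they differ, 3 of 220, an identity of 98.6%.
Cyp2c40: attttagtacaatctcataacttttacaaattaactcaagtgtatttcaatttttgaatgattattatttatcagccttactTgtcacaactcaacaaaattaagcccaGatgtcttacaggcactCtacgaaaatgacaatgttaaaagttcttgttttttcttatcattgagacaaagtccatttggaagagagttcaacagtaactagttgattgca
Cyp2c69: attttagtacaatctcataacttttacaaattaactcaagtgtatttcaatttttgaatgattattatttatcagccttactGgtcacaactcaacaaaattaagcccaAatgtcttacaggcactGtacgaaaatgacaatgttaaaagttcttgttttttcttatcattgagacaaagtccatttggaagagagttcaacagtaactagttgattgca

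The P450 genes differed among themselves far more than between the groups. Their summed level was 20988 and 20462 CPM in the wild type libraries and 20189 and 19786 CPM in the mutant libraries, 1.98% to 2.15% of all counts. The groups did not overlap, but the log2 ratio of the group means was only −0.05. Of the 60 members, 27 had a mean of at least 10 CPM over the 4 libraries, 6 lay between 1 and 10 CPM, and 27 were under 1 CPM. Reads from Cyp2b23, Cyp2j12 and Cyp2w1 were at 0 in all 4 libraries, which allows up to 3 counts in each.

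Compared per kilobase of exon, Cyp2e1, the ethanol and acetaminophen oxidase, held the highest level, 2678 CPM per kilobase on average, and 32.7% of the summed P450 level. Next came Cyp3a11, the main PXR-inducible drug oxidase, with 700.7 CPM per kilobase, and Cyp2d9, a testosterone hydroxylase typical of male liver, with 546.6. Cyp3a25 and Cyp2c29 followed with 504.2 and 453.2 CPM per kilobase, and these 5 genes made up 59.5% of the total. With the longest coding transcript in place of the union of exons, the levels of Cyp3a11, Cyp2d9 and Cyp2c29 were 1522, 848.6 and 778.0, and Cyp2c29 ranked ahead of Cyp3a25. In both lengths Cyp2e1 stayed first and Cyp3a11 second. By subfamily, the summed CPM was made up of Cyp2e1 at 28.4% of P450 counts, Cyp3a at 24.0%, Cyp2c at 17.4% and Cyp2d at 15.1%.

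**Figure D1:**
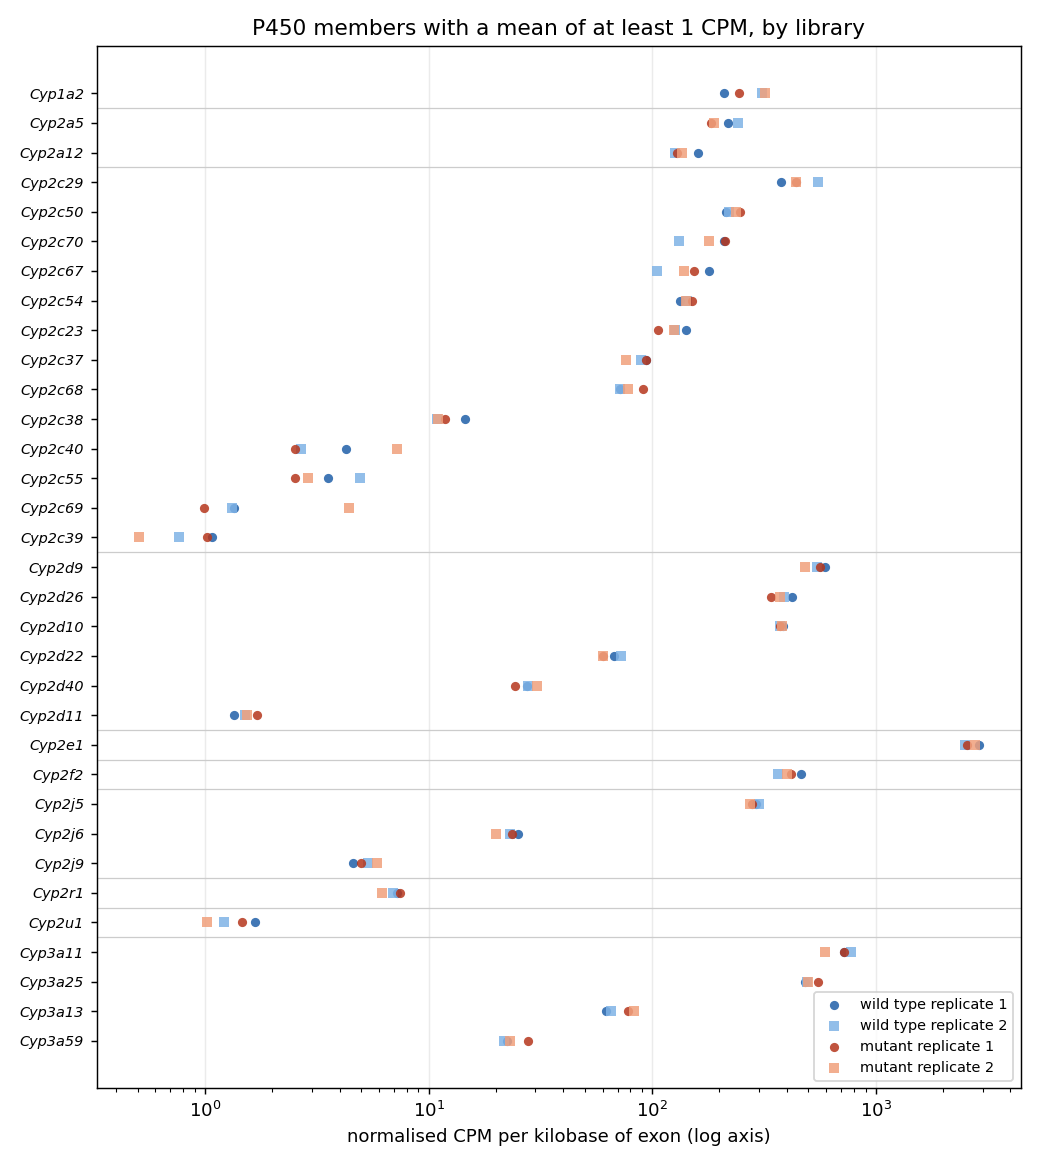
Level of the 33 members with a mean of at least 1 CPM, as normalised CPM per kilobase of exon on a log axis, 1 point per library, grouped by subfamily. The 4 libraries lie close together for most genes while genes span over 3 orders of the axis, and mutant replicate 2 stands to the right for Cyp2c40 and Cyp2c69.

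**Figure D2:**
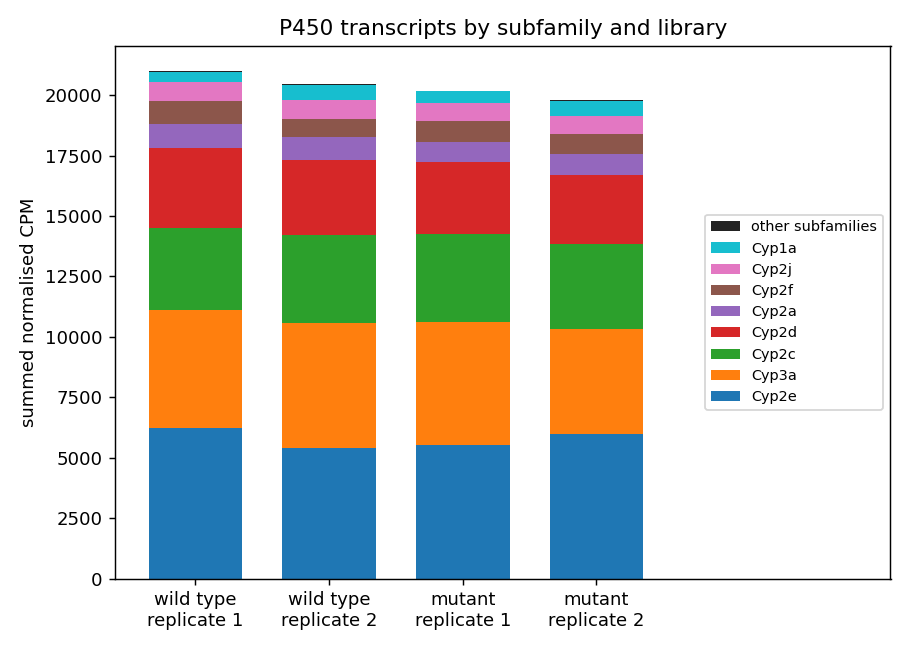
Summed normalised CPM of P450 members in each library, stacked by subfamily, from 0. The totals run from 19786 to 20988 CPM, and Cyp2e, Cyp3a, Cyp2c and Cyp2d fill most of each bar.

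Between the groups, 0 of the 45 members tested passed the edgeR adjusted p of 0.05, in either direction, against 0.341% of all genes tested. At an unadjusted p below 0.05 there were 6 (6.19% over all genes). DESeq2 also called 0 members (0.764% of all genes), with 6 at an unadjusted p below 0.05 (5.01%), and limma-voom 0 (0.0478%), again with 6 (5.99%). Without robust estimation edgeR called 0 (0.0546%), and after requiring 1 CPM in 2 libraries it called 0 (0.208%). The lowest edgeR adjusted p among members was 0.277, for Cyp2c55. The other 15 members had too few counts for the test, at most 31 in any library; they were Cyp2b9, Cyp2b13, Cyp2b19, Cyp2b23, Cyp2c65, Cyp2c66, Cyp2j7, Cyp2j11, Cyp2j12, Cyp2j13, Cyp2w1, Cyp3a16, Cyp3a41a, Cyp3a41b and Cyp3a57. Of the 45, 17 had an estimate above 0 and 28 below it. The median was −0.08 on the log2 scale, against −0.0013 over all genes, 49.7% of which were above 0. Groups did not overlap for 19 of the 45 and for 34.1% of all genes. Members that passed the filter through 1 group alone had to differ, so these counts describe the tested members only. Among the 27 members of at least 10 CPM, all tested, 10 were positive and 17 negative with a median of −0.02, and 10 had groups that did not overlap (31.2% over genes of that level).

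The intervals bound the difference between these libraries in the abundant members. They rest on variation between libraries that may be technical only, so they need not bound a difference between animals. For all 27 members of at least 10 CPM the 95% confidence interval of the fold lay inside 2-fold in both directions, as for 97.6% of tested genes at that level. The widest was that of Cyp2c67, from −0.90 to 0.97 on the log2 scale. The median ratio of the larger to the smaller library was 1.081 within wild type and 1.103 within mutant liver, and the median ratio of the larger to the smaller group mean was 1.088. A gap between group means larger than the gap within both groups was seen in 7 of the 27 (25.9%, against 20.4% of tested genes at that level). These were Cyp2a5, Cyp2c50, Cyp2c68, Cyp2d22, Cyp2d26, Cyp2j5 and Cyp3a13.

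**Figure D3:**
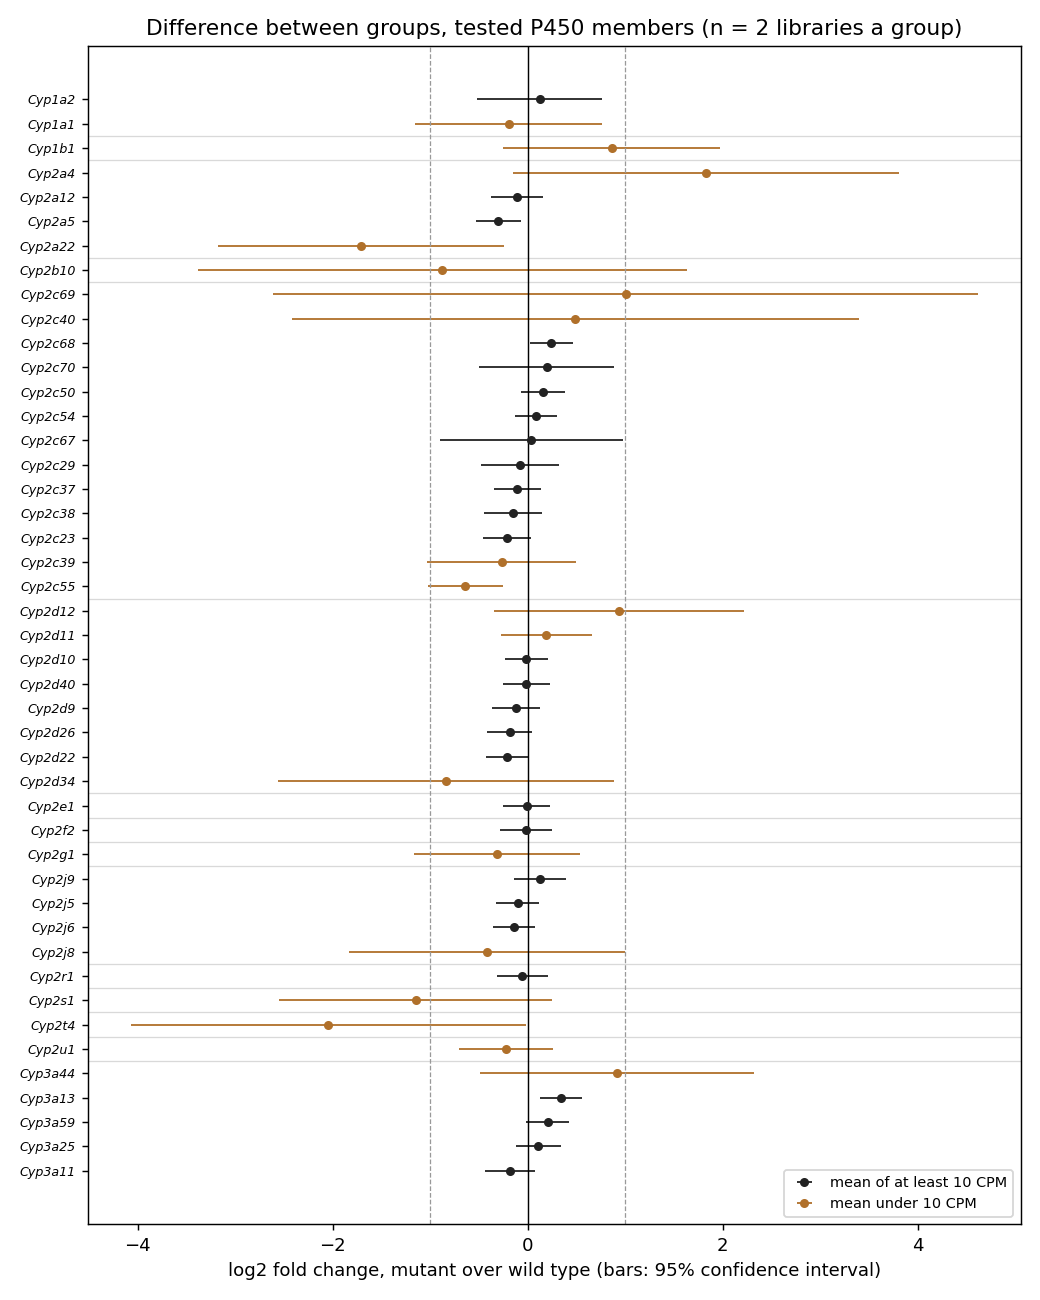
Log2 fold change of the 45 tested members, mutant over wild type, with 95% confidence intervals (n = 2 libraries a group), black for a mean of at least 10 CPM and brown below it. Dashed lines mark a 2-fold change; every black interval lies between them, and the brown intervals are wide.

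In family 1, Cyp1a2, the AhR target that demethylates caffeine (ENSMUSG00000032310, mm10 chromosome 9, 57676937 to 57683703, minus strand), was at 420 and 624 CPM in the wild type libraries and at 491 and 645 CPM in the mutant libraries. Each group held a low and a high library, and the log2 fold change of 0.12 (SE 0.24) lay within that spread. Cyp1a1, which AhR induces from a low base, stood at 1.52 and 0.581 CPM in the wild type libraries and at 0.809 and 1.04 CPM in the mutant libraries. Cyp1b1, an oestrogen-metabolising enzyme known mostly from stromal cells, had 24 and 20 counts in wild type and 58 and 35 in mutant libraries, which did not overlap (log2 fold change 0.86 with SE 0.51, edgeR adjusted p = 0.946).

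Over the 4 tested Cyp2a genes the median was −0.21 on the log2 scale, and the estimates ran from −1.71 (Cyp2a22) to 1.83 (Cyp2a4). Cyp2a4 had 12 and 2 counts in wild type and 12 and 43 in mutant libraries (SE 0.90). Cyp2a5, the coumarin hydroxylase (chromosome 7, 26835305 to 26843548, plus strand), was at 451 and 500 CPM in the wild type libraries and at 379 and 393 CPM in the mutant libraries. Both mutant libraries were lower, yet the log2 fold change of −0.30 (SE 0.10, interval −0.53 to −0.07) did not pass over all genes (edgeR adjusted p = 0.543). Cyp2a12, a steroid hydroxylase, overlapped between the groups at 557 and 436 CPM in the wild type libraries and at 448 and 472 CPM in the mutant libraries. Cyp2a22 had 70 and 16 counts in wild type and 14 and 15 in mutant libraries, so its log2 fold change of −1.71 (edgeR adjusted p = 0.668) was −0.44 without wild type replicate 1. Between Cyp2a4 and Cyp2a5, 4.22% of the 150-base windows of Cyp2a4 transcripts were the same.

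Among the Cyp2b genes only Cyp2b10, the classical CAR target, was tested. It had 93 and 81 counts in wild type and 101 and 12 in mutant libraries. The low value of mutant replicate 2 set the log2 fold change of −0.88 (SE 0.91), which was −0.08 without that library and −2.95 without mutant replicate 1. Cyp2b9 had at most 27 counts, Cyp2b13 and Cyp2b19 at most 1.

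The Cyp2c genes, many of which oxidise arachidonic acid and drugs, form the largest subfamily, with 14 of 15 members within 1180 kb of chromosome 19 (39007019 to 40187333). Of 13 tested, 7 were positive and 6 negative, with a median of 0.04. Cyp2c29, the most abundant per length, was at 1155 and 1696 CPM in wild type, a wider gap than between the group means, and at 1349 CPM in each mutant library. Cyp2c50 was at 622 and 645 CPM in the wild type libraries and at 720 and 692 CPM in the mutant libraries, with a log2 fold change of 0.16 (SE 0.10) and no overlap. Its neighbour Cyp2c54 was at 238 and 255 CPM in the wild type libraries and at 269 and 252 CPM in the mutant libraries, which overlapped.

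Cyp2c55, an enzyme induced through CAR and PXR (ENSMUSG00000025002, chromosome 19, 39007019 to 39042693, plus strand), was at 7.10 and 9.85 CPM in the wild type libraries and at 5.06 and 5.80 CPM in the mutant libraries. Both mutant libraries were below both wild type libraries, with a log2 fold change of −0.64 (SE 0.18, interval −1.02 to −0.26, edgeR adjusted p = 0.277). With no filter on low counts it was called (edgeR adjusted p = 0.00935, where 1.12% of all genes were), and its log2 fold change ran from −0.86 without wild type replicate 1 to −0.39 without wild type replicate 2. Cyp2c68 was at 124 and 123 CPM in the wild type libraries and at 157 and 135 CPM in the mutant libraries (0.24, SE 0.10, edgeR adjusted p = 0.738). Cyp2c23, at 306 and 274 CPM in the wild type libraries and at 230 and 271 CPM in the mutant libraries, had a log2 fold change of −0.21. With 1 library left out, the estimates of Cyp2c68 and Cyp2c23 ran from 0.13 to 0.34 and from −0.34 to −0.10.

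Cyp2c70, the enzyme that makes muricholic acids in mouse liver, and Cyp2c67 varied more within wild type than between groups. Cyp2c70 was at 417 and 263 CPM in the wild type libraries and at 419 and 357 CPM in the mutant libraries. Cyp2c67 was at 311 and 182 CPM in the wild type libraries and at 265 and 241 CPM in the mutant libraries. In both genes wild type replicate 2 was the lowest of the 4 libraries, and without it their log2 fold changes were −0.10 and −0.30 in place of 0.19 and 0.04. Cyp2c37 (−0.11) and Cyp2c38 (−0.15) overlapped between the groups.

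The 8 Cyp2d genes, relatives of the human drug oxidase CYP2D6, lie within 424 kb of chromosome 15. Cyp2d9 was at 1582 and 1447 CPM in the wild type libraries and at 1497 and 1285 CPM in the mutant libraries, which overlapped (log2 fold change −0.12 with SE 0.11). Cyp2d26 was lower in both mutant libraries, at 756 and 700 CPM in wild type against 609 and 672 CPM (−0.18, SE 0.11). So was Cyp2d22, at 263 and 284 CPM against 236 CPM in each mutant library (−0.21, SE 0.10). Neither passed (edgeR adjusted p = 0.938 and 0.820). Cyp2d10 was level at 636, 616, 616 and 624 CPM in the order wild type replicates 1 and 2 and mutant replicates 1 and 2, and Cyp2d40 had a log2 fold change of −0.02. Only Cyp2d11 (0.19) and Cyp2d12 (0.94) had estimates above 0. Cyp2d12 had 28 and 9 counts in wild type and 40 in each mutant library, and Cyp2d34 had 12 and 10 against 7 in each, too few to bound the difference.

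Of the single-gene subfamilies, Cyp2e1 (ENSMUSG00000025479, chromosome 7, 140763739 to 140774987, plus strand) was at 6213 and 5395 CPM in the wild type libraries and at 5507 and 5999 CPM in the mutant libraries. The 4 values interleave, with a log2 fold change of −0.01 (SE 0.11, interval −0.25 to 0.23). Cyp2f2, a naphthalene oxidase of periportal hepatocytes and airway club cells, was at 937 and 740 CPM in the wild type libraries and at 842 and 816 CPM in the mutant libraries, and 13.5% of its exon bases overlap Gm15883 on the opposite strand, whose reads cannot be told apart from its own without strand. The fatty acid hydroxylase Cyp2u1 had 731 and 461 counts in wild type against 730 and 448, and Cyp2g1, an enzyme of the olfactory mucosa, 104 and 45 against 78 and 58. The vitamin D hydroxylase Cyp2r1 was at 15.3 and 14.6 CPM in the wild type libraries and at 15.7 and 13.1 CPM in the mutant libraries. Cyp2t4 had 15 and 29 counts in wild type and 1 and 11 in mutant libraries (log2 fold change −2.05 with SE 0.93, edgeR adjusted p = 0.799). Its estimate ran from −4.60 to −1.13 as libraries were left out.

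Cyp2j genes encode epoxygenases of arachidonic acid. Cyp2j5 was slightly lower in both mutant libraries, at 684 and 705 CPM in the wild type libraries and at 655 and 640 CPM in the mutant libraries (log2 fold change −0.10 with SE 0.10). Cyp2j6 (−0.14) and Cyp2j9 (0.12) overlapped between the groups. The subfamily median was −0.12 over 4 tested members of 8.

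The Cyp3a genes had the highest median among subfamilies with 3 or more tested members, 0.20 over 5. Cyp3a13 (ENSMUSG00000029727, chromosome 5, 137892932 to 137921619, minus strand), which lies apart from the cluster of the other 8 Cyp3a genes, was at 183 and 193 CPM in the wild type libraries and at 231 and 245 CPM in the mutant libraries. Its log2 fold change of 0.34 (SE 0.10, interval 0.13 to 0.55) was the largest in size among members of at least 10 CPM and did not pass (edgeR adjusted p = 0.330, and 0.0931 with DESeq2). Without each library in turn the estimate stayed between 0.29 and 0.38. Cyp3a25 was at 1001 and 1022 CPM in the wild type libraries and at 1145 and 1033 CPM in the mutant libraries (0.11), and Cyp3a59 at 44.9 and 43.6 against 55.5 and 46.3 CPM (0.20). Without mutant replicate 1 these estimates were 0.03 and 0.07.

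Cyp3a11 went the other way. It was at 3666 and 3925 CPM in the wild type libraries and at 3671 and 3012 CPM in the mutant libraries, so mutant replicate 1 lay inside the wild type range and replicate 2 below it (log2 fold change −0.18 with SE 0.12, edgeR adjusted p = 0.966). Leaving out mutant replicate 2 brought the estimate to −0.05. Cyp3a44 had 8 and 23 counts in wild type and 43 and 27 in mutant libraries. Cyp3a41a and Cyp3a41b share 82.9% and 82.7% of their 150-base windows with each other. The handling of reads with several placements was not found, so their counts may not belong to the copy named.

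The summed level of a set of 9 members known to be higher in female mice varied mainly in 1 library. It was 11.4 and 8.76 CPM in wild type replicates 1 and 2, 7.56 CPM in mutant replicate 1 and 23.6 CPM in mutant replicate 2. Cyp2c40 was at 8.67 and 5.48 CPM in the wild type libraries and at 5.15 and 14.8 CPM in the mutant libraries, and Cyp2c69 at 2.30 and 2.27 CPM in the wild type libraries and at 1.69 and 7.52 CPM in the mutant libraries. The steroid hydroxylase Cyp2a4 (12 and 2 counts in wild type, 12 and 43 in the mutant) and Cyp2b9 (5 and 1, then 2 and 27) were also highest in mutant replicate 2. In the other mutant library Cyp2c40 and Cyp2c69 were below both wild type libraries.

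For this reason the group comparison of Cyp2c40 and Cyp2c69 rests on 1 library. Of the 9 members in the set, 4 were tested, with 0 past the edgeR threshold (0.341% over all genes) and 4 above 0 (49.7%). Among them Cyp3a44 was highest in mutant replicate 1, and with 1 library left out its estimate ran from 0.29 to 1.99. The log2 fold change of Cyp2c69 was 1.004 (SE 0.97), −0.44 without mutant replicate 2 and 1.72 without mutant replicate 1 (edgeR adjusted p = 0.0560). Of the transcript windows of Cyp2c40 and Cyp2c69, 20.3% and 20.2% occur in another gene too. With each other they share 11.2% of the windows of Cyp2c40 and 15.6% of those of Cyp2c69, so reads could pass between these copies. The set did not move as 1 block, since Cyp3a16 (31 counts) and Cyp3a41a (16 counts, which may in part belong to Cyp3a41b) were highest in wild type replicate 2. Of 8 genes known to be higher in male mice, Cyp2d9 among them, 0 passed the edgeR threshold, against 0.341% of all genes. At an edgeR unadjusted p below 0.05 there was 1 (6.19% over all genes). Cyp4a12b overlapped between the groups, at 106 and 42.0 CPM in wild type against 57.5 and 54.1 CPM (log2 fold change −0.41 with SE 0.63). Its estimate was −0.93 without wild type replicate 2 and 0.41 without wild type replicate 1. The summed level of these 8 was 10460 and 8795 CPM in the wild type libraries and 11190 and 9263 CPM in the mutant libraries, so it was lowest in wild type replicate 2.

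**Figure D4:**
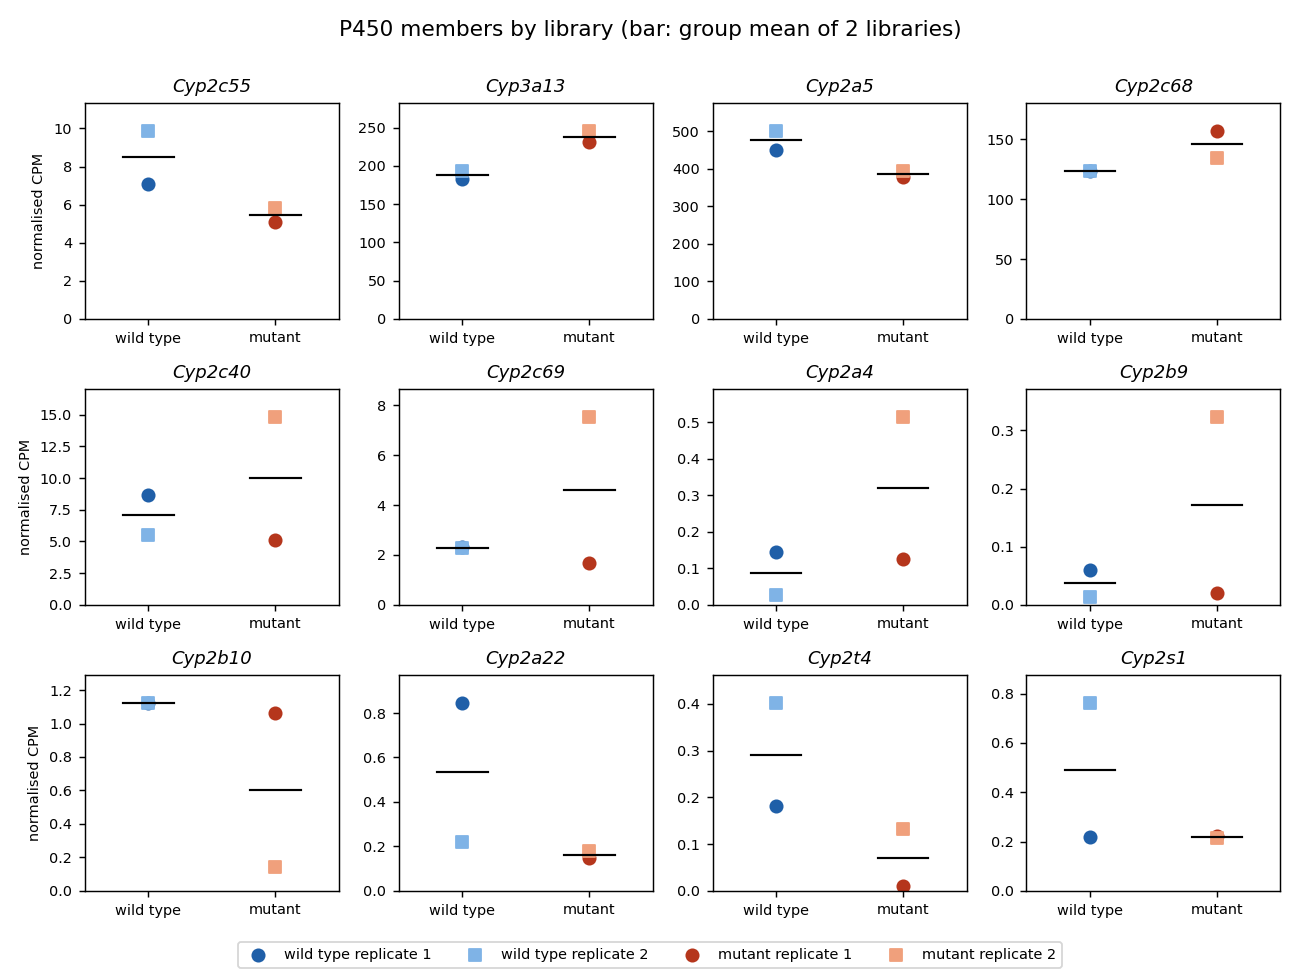
Normalised CPM of 12 members, 1 point per library, from 0, with a bar at each group mean, chosen after their values were seen. The top row shows 4 genes whose groups do not overlap, and the middle row 4 genes highest in mutant replicate 2. In the bottom row Cyp2b10 is low in mutant replicate 2 alone, Cyp2a22 and Cyp2s1 are each high in 1 wild type library, and Cyp2t4 is low in both mutant libraries.

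Position in the genome was shared by many members. On chromosome 7 a cluster of 13 genes (25802475 to 27158668) holds Cyp2a, Cyp2b, Cyp2f2, Cyp2g1, Cyp2s1 and Cyp2t4, and of its 9 tested members 1 was positive and 8 negative (49.7% of all genes were positive). Without wild type replicate 1, 4 of the 9 were positive. In the chromosome 19 cluster 7 of 12 tested were positive, and in the Cyp3a cluster on chromosome 5 (145345279 to 146113287) 3 of 4. None of the members in these clusters passed the threshold.

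Promoters were found by symbol for 52 of 60 members. Within 250 bases ahead of the start, GTAAACA on either strand occurred in 8 of them (15.4%) and in 3.54% of 27025 genes with a promoter sequence. The 8 were Cyp2c38, Cyp2c39, Cyp2j5, Cyp3a11, Cyp3a16, Cyp3a41a, Cyp3a41b and Cyp3a44, of which 5 are neighbouring copies of Cyp3a and so not independent. Of the 5 tested, 1 was above 0 and 4 below 0 in log2 fold change. The estimates of Cyp2c38 and Cyp2c39, which were below 0, turned sign with 1 library left out. CAAAACA occurred in 9 members (17.3%, and 6.38% of all genes), with all 4 tested members negative, Cyp2d9, Cyp2d10, Cyp2d40 and Cyp2j5. The signs of Cyp2d10 and Cyp2d40 turned with 1 library left out. With or without these letters, 28 of the 45 tested members were below 0. The TATA letters, TATAAA, which are not forkhead letters, occurred in 25 members (48.1%, and 14.3% of all genes). Of the 20 tested with TATAAA, 6 were above 0 and 14 below. The core of the xenobiotic response element, GCGTG, was present in 15.4% of member promoters and 30.9% of all. Such matches describe the sequence and say nothing of binding.

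Of the lists of genes that serve or control the P450 enzymes, 1 gene passed the threshold, Alas1. P450 oxidoreductase, Por, was at 186 and 193 CPM in the wild type libraries and at 199 and 177 CPM in the mutant libraries (log2 fold change −0.01, interval −0.23 to 0.21). Cytochrome b5, Cyb5a, a second electron donor, had a log2 fold change of 0.04. Of 9 redox partners 0 passed in edgeR (0.341% over all genes) and 0 had an unadjusted p below 0.05 (6.19%). In the list of haem synthesis and breakdown, 1 of 14 genes passed (0.341% over all genes). Alas1, which sets the rate of haem synthesis, is itself a CAR and PXR target, and rose from 130.5 and 131 CPM to 233 and 266 CPM (log2 fold change 0.93 with SE 0.10, edgeR adjusted p = 0.00228). With any 1 library left out its log2 fold change ran from 0.83 to 1.02 and the edgeR adjusted p from 0.0560 to 0.0809. Hmox1, the haem-degrading enzyme, had 16.8 and 15.5 CPM in wild type against 22.5 and 21.4 CPM, without overlap, and did not pass (edgeR adjusted p = 0.174).

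Among the receptors, Nr1i3 (CAR) was at 131 and 123.5 CPM in the wild type libraries and at 134 and 122 CPM in the mutant libraries, and Nr1i2 (PXR) at 66.7 and 66.3 against 64.3 and 70.9 CPM. The dioxin receptor Ahr was at 59.2 and 57.8 against 52.0 and 61.4 CPM. All 3 interleave, with log2 fold changes of 0.01, 0.02 and −0.04 and intervals inside ±0.26. Rxra, the partner of CAR and PXR, had a log2 fold change of −0.04. The hepatocyte factor Hnf4a had 0.13, the oxidative stress factor Nfe2l2 −0.06, and the clock output factors Dbp, Tef and Hlf −0.04, 0.17 and 0.25. Of 30 controlling genes 0 passed in edgeR and 4 had an unadjusted p below 0.05 (6.19% over all genes), namely Foxa2, Bcl6, Hlf and Onecut1. Foxa2, a forkhead factor of hepatocytes, was at 16.5 and 16.0 CPM in the wild type libraries and at 25.3 and 20.9 CPM in the mutant libraries (0.51, edgeR adjusted p = 0.141). Bcl6, a repressor that acts in sex-biased liver expression, was at 34.0 and 21.0 CPM against 14.1 and 14.4 CPM (−0.95, edgeR adjusted p = 0.584, and 0.0127 without wild type replicate 2). The hepatocyte factor Onecut1 was at 2.33 and 1.02 CPM against 3.96 and 6.45 CPM (1.62, edgeR adjusted p = 0.663). In these 3 and in Hlf the groups did not overlap. That held for 8 of the 30 controlling genes (26.7%) and for 34.1% of all genes tested.

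Other targets of the same receptors were also tested. Over all genes tested in edgeR 0.341% passed, 6.19% had an unadjusted p below 0.05 and 49.7% were above 0. Of 5 tested AhR targets outside the family 0 passed in edgeR, with 1 at an unadjusted p below 0.05. Of 16 CAR and PXR targets Alas1 alone passed, with 4 at an unadjusted p below 0.05 and 11 below 0 in log2 fold change. Besides Alas1, these 4 were the carboxylesterase Ces2a (−0.38), the bile acid exporter Abcc3 (−0.35) and Gadd45b (−1.08). The medians were −0.12 (−0.19 to 0.32 with 1 library left out) for AhR targets and −0.19 (−0.29 to −0.06) for CAR and PXR targets. Zonation markers outside the family had medians of 0.05 (12 pericentral genes, −0.04 to 0.04 with 1 library left out) and −0.04 (12 periportal genes, −0.07 to 0.05), beside −0.05 for 8 pericentral P450 genes, with 0 past the edgeR threshold in each and 0, 0 and 1 at an unadjusted p below 0.05. P450 genes of families 4 and up, which act mostly on fatty acids, bile acids and steroids, had 0 of 28 tested past the edgeR threshold, 3 at an unadjusted p below 0.05, and a median of −0.01.

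**Figure D5:**
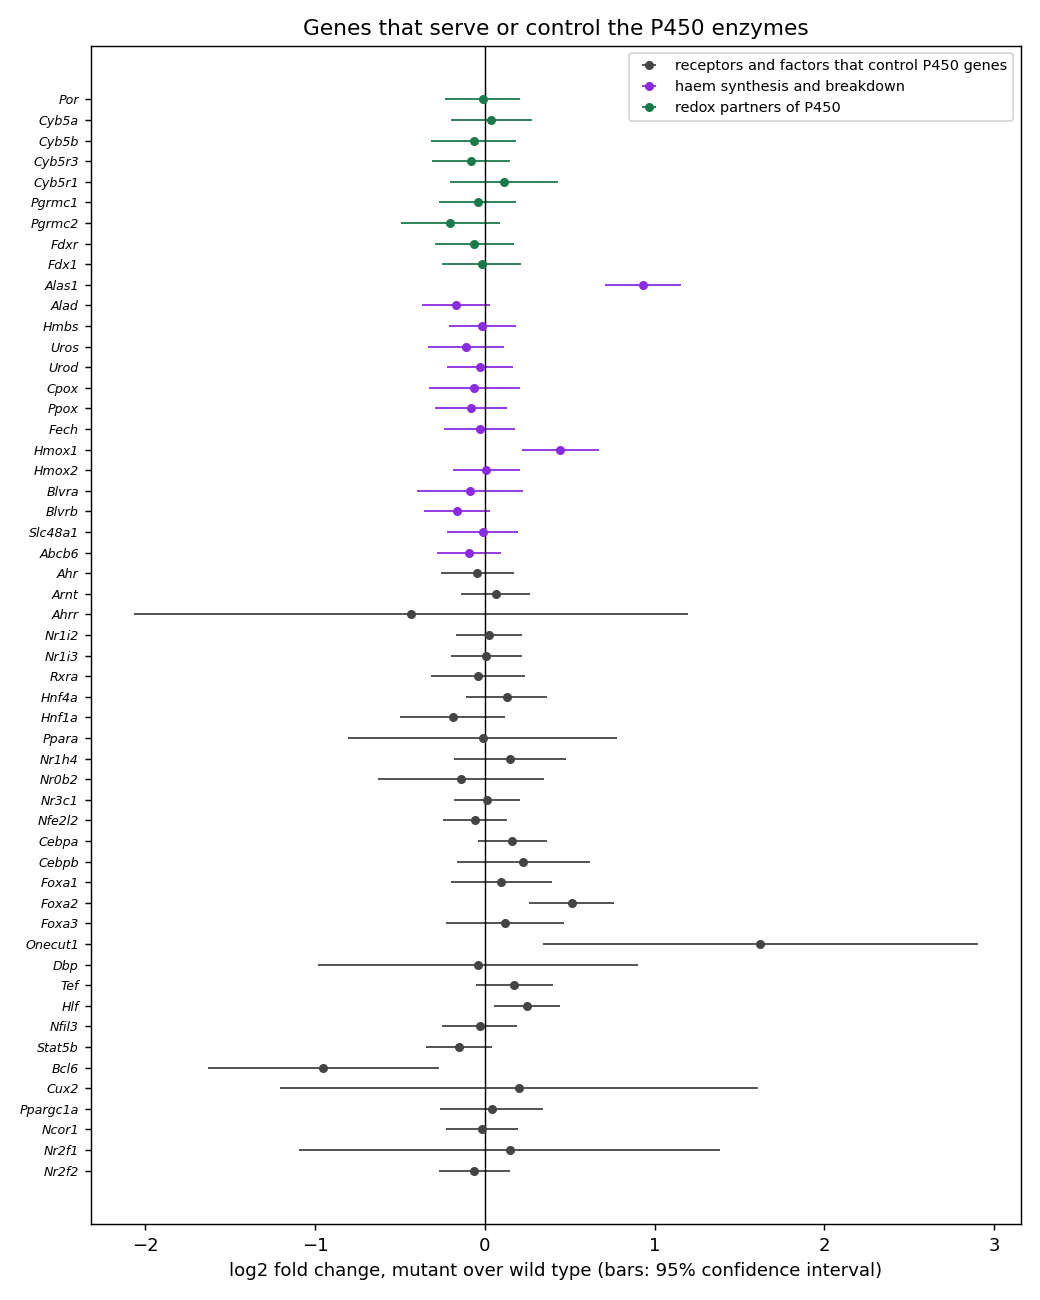
Log2 fold change, mutant over wild type, with 95% confidence intervals (n = 2 libraries a group) for redox partners, haem genes and controlling factors of the P450 enzymes. Alas1 at 0.93 is the only gene of these 3 lists past the threshold; Por, Nr1i2, Nr1i3 and Ahr sit near 0, and the low-count genes Ahrr, Cux2 and Nr2f1 have wide intervals.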

How the data were processed

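The authors deposited whole-number read counts for each Ensembl identifier, without normalization. The submitters' processing notes name TopHat2 2.1.1, HTSeq 0.6.0 and the mm10 build. Strand setting, annotation release and handling of reads with several placements were not found in the sources used here. Per the labels' protocols libraries were made with the TruSeq RNA kit v2, which does not mark strand. Symbols were found for 95.0% of 37315 identifiers, and coordinates come from GENCODE for the same build.

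Counts were filtered with filterByExpr (minimum count 10), scaled by TMM (factors 0.983 to 1.02) and tested with edgeR 4.0.16 in R 4.3.3 (glmQLFit and glmQLFTest, robust, group as the only term), with Benjamini-Hochberg adjustment over 14657 genes. Each SE is the size of the log2 estimate divided by the root of the F statistic. DESeq2 1.42.0 and limma-voom (limma 3.58.1) were alternatives. Levels per kilobase use the union of annotated exons. Shared windows are exact 150-base matches between transcripts of different genes.

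Named members are those with a mean of at least 10 CPM, past the threshold, or with non-overlapping groups and a change of 0.5 or more on the log2 scale; others are named for a pattern seen in the values. Members and lists were chosen with earlier results of these data known.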

Additional observations from a re-analysis of the deposited data

How the results depend on the processing

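The number of genes past the threshold, 50, was 258 with no filter, 24 with a filter of 1 CPM in 2 libraries, 112 with DESeq2, 7 with limma-voom, 8 without robust estimation and 111 with the replicate number as a block, and 3 to 17 with 1 library left out. The number of P450 members past it, 0, became 1 (Cyp2c55) with no filter and was 0 under every other alternative. The median over the tested members ran from −0.11 to 0.013 with 1 library left out and was −0.016 for members of at least 10 CPM, an alternative chosen after seeing the data. The median of Cyp3a was 0.12 with no filter. With 1 library left out, medians ran from −0.10 to 0.074 (Cyp2c), −0.14 to 0.050 (Cyp2j) and 0.066 to 0.29 (Cyp3a), and the log2 ratio of the summed level from −0.07 to −0.03.

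With 1 library left out, signs turned for 21 of the 45 tested members, and another 18 moved by over 1.5 times. Signs turned for Cyp1a1, Cyp2c39, Cyp2c40, Cyp2c69, Cyp2g1, Cyp2j8, Cyp2s1 and Cyp2u1, and for Cyp1a2 (−0.13 to 0.44), Cyp2a12 (−0.28 to 0.079), Cyp2c29 (−0.33 to 0.22), Cyp2c37 (−0.26 to 0.029), Cyp2c38 (−0.34 to 0.074), Cyp2c67 (−0.30 to 0.48), Cyp2c70 (−0.10 to 0.56), Cyp2d10 (−0.038 to 0.010), Cyp2d40 (−0.19 to 0.14), Cyp2e1 (−0.11 to 0.093), Cyp2f2 (−0.18 to 0.16), Cyp2j9 (−0.0076 to 0.24) and Cyp2r1 (−0.20 to 0.070). Among other genes they turned for Por (−0.10 to 0.067), Cyb5a (−0.068 to 0.13), Ahr (−0.17 to 0.071), Nr1i2 (−0.050 to 0.093), Nr1i3 (−0.058 to 0.069), Rxra (−0.25 to 0.14), Dbp (−0.52 to 0.72) and Foxo1 (−0.56 to 0.11). Dbp was also 0.0054 with limma-voom and 0.029 with the replicate block. The cause was not tested.

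Same-numbered libraries are not said to be paired, and the deviations of replicates 1 from their group means correlated at −0.01 over 14657 genes; the block changed no call among the members (lowest edgeR adjusted p = 0.0967). The largest SE, 0.97 for Cyp2c69, was 0.20 and 0.27 without mutant replicates 1 and 2, so it came from their spread. Depth limits members with few counts.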
